A study of Mus musculus with 4 samples.

Results

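The netrin-G and netrin-G ligand (NGL) genes were described in single-nucleus RNA sequencing of the developing mouse superior colliculus, the midbrain centre that turns visual and other sensory signals into orienting movements. The members were the 5 genes Ntng1, Ntng2, Lrrc4, Lrrc4b and Lrrc4c, found by symbol among the 31053 genes of the count table; each symbol matched 1 gene. The study held 4 libraries of C57BL/6J mice with no genetic change or treatment, 1 at embryonic day 19 (E19) and 1 each at postnatal days 4 (P4), 8 (P8) and 21 (P21). Each library pooled tissue from more than 1 animal (numbers and sexes not given in the sources used here). Stages were therefore compared as single libraries, without replicates and without a test.

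Netrin-G1 (Ntng1) and netrin-G2 (Ntng2) are relatives of the laminin-like netrins that sit on the axon surface through a lipid anchor and do not bind the classical netrin receptors. Their partners are leucine-rich-repeat proteins of the postsynaptic membrane: netrin-G1 binds NGL-1, the product of Lrrc4c, and netrin-G2 binds NGL-2, the product of Lrrc4. NGL-3, the product of Lrrc4b, binds instead the receptor phosphatases of the LAR family, encoded by Ptprf, Ptprd and Ptprs. All 3 NGL proteins end in a short motif that binds the scaffold protein PSD-95, encoded by Dlg4.

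The shared end of the receptors is shown because it is the part through which all 3 NGL proteins reach the same scaffold, although the genes lie on different chromosomes. The lines give the last 60 coding bases before the stop codon, 5′ to 3′ on the coding strand, from the GRCm38 genome and the GENCODE M21 transcripts, with the last 4 codons, which hold the scaffold-binding end, in capitals.

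Lrrc4 (chr6:28829659-28829718, minus strand): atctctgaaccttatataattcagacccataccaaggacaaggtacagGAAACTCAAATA
Lrrc4b (chr7:44462773-44462832, plus strand): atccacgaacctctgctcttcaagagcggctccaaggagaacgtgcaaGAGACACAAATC
Lrrc4c (chr2:97630891-97630950, plus strand): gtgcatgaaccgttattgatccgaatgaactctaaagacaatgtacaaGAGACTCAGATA

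In capitals, 8 of the 12 positions were identical in all 3 genes, and the 4 codons encoded the same amino acids in each. Over the 60 bases, 28 positions were identical in all 3 genes, and identity between pairs was 61.7% for Lrrc4 with either other gene and 60% for Lrrc4b with Lrrc4c. The coding sequence had 1956 bases in Lrrc4, 2127 in Lrrc4b and 1920 in Lrrc4c, and lay in a single exon in Lrrc4 and Lrrc4c and in 2 exons in Lrrc4b.

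Gene spans differed far more than the coding sequences, which matters for nuclear RNA because intronic reads were counted. Lrrc4c spanned 1314 kb (chr2:96318169-97631666, plus strand), Ntng1 364 kb (chr3:109780040-110144011, minus strand), Ntng2 58.5 kb (chr2:29194541-29253005, minus strand) and Lrrc4b 34.3 kb (chr7:44429018-44463351, plus strand). The annotated Lrrc4 locus (chr6:28661831-28831747, minus strand) overlapped Snd1 on the opposite strand. The strand setting of the counting is not given in the sources used here. Whether reads of Snd1 entered the Lrrc4 counts was not tested, which leaves Lrrc4 values uncertain. Ntng2 overlapped 1 unnamed gene model on its own strand, Lrrc4c 4 on its own strand and 3 on the other, Ntng1 2 on the other strand, and Lrrc4b none.

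The table held 9724 nuclei, of which the authors' labels called 7552 neurons, in 9 classes and 35 subtypes, 25 of them neuronal (13 excitatory, EN1 to EN13, and 12 inhibitory, IN1 to IN12). Per library, 2249 to 2585 nuclei carried 19277512 to 31325079 unique molecular identifiers (UMIs, 1 per captured RNA molecule), with a median per nucleus of 6828 at E19 and 11745 at P21. Nuclei with UMIs of both Slc17a6 and an inhibitory marker (Gad1, Gad2 or Slc32a1) made up 23.3% to 27.3% of the neurons of a library, and 9 cell barcodes occurred in 2 libraries. The summed markers of inhibitory neurons, vascular leptomeningeal cells, microglia, endothelial cells and dividing cells were highest in their own class in all 4 libraries. Those of excitatory neurons (Slc17a6 and Slc17a7) were so in 3 libraries, and those of astrocytes and of oligodendrocyte precursors in 2 each. The class labelled epithelial did not hold the most of the choroid plexus and ependyma markers in any library, so its label could not be checked by them.

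Ntng1, the ligand of NGL-1, was found at similar levels in both neuron classes. Levels were UMIs summed over the nuclei of a class and scaled to 1000000 UMIs (counts per 1000000, CPM). Excitatory neurons held 994, 1505, 833 and 655 CPM at the 4 stages from E19 to P21. The inhibitory level over the same stages was 802, 966, 1069.6 and 655 CPM. Excitatory neurons were thus higher at E19 and P4, lower at P8 and level at P21, with ratios of 1.24, 1.56, 0.779 and 1.00, and the ranges of the 2 classes overlapped. In edgeR's quasi-likelihood test with the library as a block (two-sided, Benjamini-Hochberg adjustment), the log2 fold change was 0.20 ± 0.14 (SE, n = 4 libraries, adjusted p = 0.371).

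Ntng2, the ligand of NGL-2, was by contrast an excitatory gene among the neurons. Its level in excitatory neurons was 237, 214, 331 and 142 CPM in stage order. Inhibitory neurons held 7.88, 10.3, 7.58 and 11.6 CPM. Every excitatory value lay above every inhibitory one, with ratios of 30.0, 20.7, 43.7 and 12.2 in stage order and counting intervals between 10.2 and 54.9. The inhibitory values rested on 47 to 131 UMIs. Pooled over stages, they were within the range found in non-neural cells. That range was 0 to 13.1 CPM in vascular leptomeningeal cells, on at most 12 UMIs, and 0 to 26.3 CPM in microglia, on at most 2. In stage order the leptomeningeal values were 0, 4.06, 2.08 and 13.1 CPM, below inhibitory neurons at E19, P4 and P8 and above them at P21. At E19 the leptomeningeal cells had 0 UMIs, and a limit of 3 counts allows up to 13.6 CPM. The edgeR test gave a log2 fold change of 4.61 ± 0.24 (SE, n = 4 libraries, adjusted p = 1.27e-05), higher in excitatory neurons in 4 of 4 libraries.

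**Figure D1:**
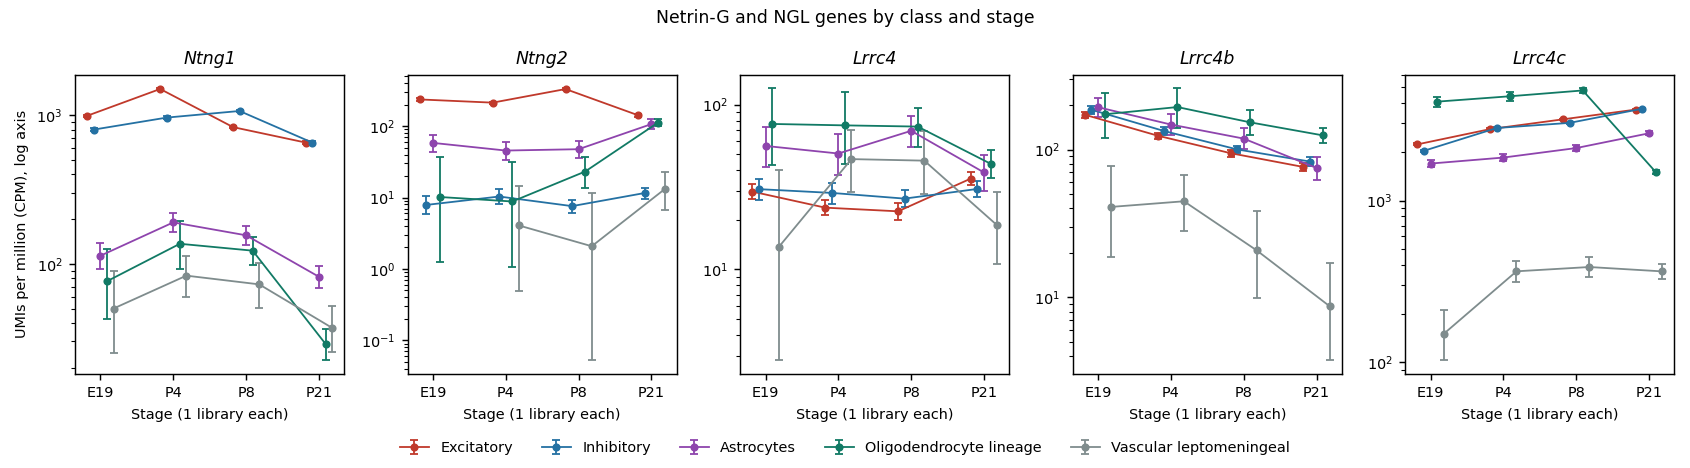
Level of each gene (CPM, log axis) by stage in 5 classes; points are single libraries and bars are 95% Poisson intervals for counting error, and the leptomeningeal Ntng2 value at E19, with 0 UMIs, is not drawn. Ntng2 is the gene for which the excitatory points (142 to 331 CPM) lie apart from the inhibitory ones (7.58 to 11.6 CPM) at each stage.

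Nuclei with at least 1 Ntng2 UMI showed the same contrast. In excitatory neurons they made up 35.9%, 42.5%, 65.7% and 66.3% of nuclei in stage order, against 3.47%, 5.96%, 5.61% and 12.7% of inhibitory neurons. Leptomeningeal cells had a UMI in 2.56% of nuclei at P4, 1.43% at P8 and 7.91% at P21, and in 0 of 36 nuclei at E19, for which a limit of 3 counts allows a share of up to 8.33%. Median depth was 6207 UMIs in leptomeningeal nuclei at P4, against 11738 in excitatory and 7684 in inhibitory neurons. After every nucleus was thinned to 2000 UMIs, fewer than the 2355 of the shallowest nucleus, the excitatory shares were 23.6%, 23.5%, 37.0% and 21.8% and the inhibitory ones 1.29% to 2.16%. The unthinned excitatory share was higher at P21 than at P8 while the CPM was lower, so no order of stages is read from it.

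The NGL genes did not share the split of Ntng2. Of the 5 members, 1 was called between the neuron classes at an adjusted p below 0.05, where 16.6% of the 15686 genes tested were called 9.57% higher in excitatory and 7.04% higher in inhibitory neurons. Lrrc4c held 2223, 2763, 3175 and 3647 CPM in excitatory neurons from E19 to P21 and 2029, 2806, 3018 and 3694 CPM in inhibitory neurons, and its log2 fold change was 0.10 ± 0.06 (SE, n = 4 libraries, adjusted p = 0.314 by edgeR). For Lrrc4b the log2 fold change was -0.05 ± 0.04 (SE, n = 4 libraries, edgeR adjusted p = 0.507) and for Lrrc4 -0.03 ± 0.09 (SE, n = 4 libraries, edgeR adjusted p = 0.876). Over these 3 genes and the 4 libraries, the ratio of excitatory to inhibitory neurons ran from 0.814 (Lrrc4 at P4) to 1.16 (Lrrc4 at P21). The class labels were made from the same counts, so the tests describe labelled classes rather than independently sorted cells.

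Between genes, levels were set side by side per length, and how far the UMI counts scale with length was not tested. Per kb of gene span, excitatory neurons at P21 held 2.78 CPM of Lrrc4c, 2.43 of Ntng2, 2.22 of Lrrc4b and 1.80 of Ntng1. Per kb of exons the order and the distances were different, with 788 CPM of Lrrc4c, 79.5 of Ntng1, 35.5 of Ntng2 and 26.0 of Lrrc4b, so the order of genes depends on which length is used. At E19, per kb of span, the values were 5.0 CPM per kb of Lrrc4b, 4.05 of Ntng2, 2.73 of Ntng1 and 1.69 of Lrrc4c. Lrrc4 stood lowest at both stages, at 0.175 and 0.210 CPM per kb of span, but its annotated span is far longer than its single-exon coding transcript.

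Within the classes, Ntng1 differed widely between subtypes of both transmitter types. EN7 held the most, 3562 ± 79.3 CPM (SD, n = 2 libraries), with 3618 CPM at E19 and 3506 at P4. IN2 followed at 2080.0 ± 484 CPM, IN5 at 1816 ± 218, IN7 at 1688 ± 786, EN3 at 1328 ± 259 and EN5 at 1283 ± 189 (SD, n = 4 libraries each). The lowest subtypes were IN8 at 190.0 ± 46.1 CPM, IN4 at 164 ± 51.4 and IN12 at 141 ± 94.4, so that the subtype means spanned 25.2-fold. Between them came, in falling order, EN1, EN2, EN4, EN11, EN9, IN9, EN12, EN6, EN8, EN10, EN13, IN1, IN3, IN11, IN6 and IN10, from 963 to 263 CPM. Of the 24 steps between neighbours in this order, 2 exceeded the larger SD of the pair, EN7 to IN2 and EN5 to EN1. For each gene this SD is taken over libraries of different stages, so it holds the difference between stages. A step within it does not show that 2 subtypes are alike. The top of the order thus mixed excitatory and inhibitory subtypes, and the order was alike in each pair of libraries, with Spearman rank correlations from 0.734 to 0.930 over 23 to 25 subtypes.

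EN7 supplied a large part of the excitatory Ntng1 counts at P4. It had 33 nuclei at E19 and 191 at P4 but 1 each at P8 and P21, and at P4 it held 43.4% of the excitatory Ntng1 UMIs from 15.8% of the nuclei. Without EN7 the excitatory level was 921, 1046, 834 and 653 CPM in stage order, an alternative added after the values were seen. Markers of the neighbouring thalamus were also looked at in EN7. All 6 genes of a thalamic list (Gbx2, Tcf7l2, Lef1, Rora, Prkcd and Rnf220) had UMIs in it at E19 and P4, as in EN1, EN2 and IN1. Those subtypes held 514, 287 and 266 nuclei at E19 and 419, 107 and 205 at P4. Their summed level in EN7 was 10964 CPM at E19 and 7485 at P4. Most of it was Rnf220 (6131 and 3921 CPM), Tcf7l2 (2423 and 1392 CPM) and Rora (2002 and 1630.2 CPM). Lef1 was at 389 and 524 CPM, where EN9 held 1979 and 1625 CPM. Prkcd was at 12.9 and 13.7 CPM, where EN12 held 15.5 and 30.6 CPM. Gbx2, a defining gene of that tissue, was at 6.43 and 4.68 CPM, the highest among the neuron subtypes at both stages. The next were IN7 at E19, at 5.20 CPM, and IN4 at P4, at 4.43 CPM. These Gbx2 values rest on few UMIs, as the whole excitatory class held 9 at E19 and 18 at P4. EN2 held 1976 and 1238 CPM of Tcf7l2 and 2544 and 1603 CPM of Rora, but 143 and 197 CPM of Rnf220. EN12 and IN7 also reached summed levels of 7887 to 11604 and 5470.4 to 8177 CPM, most of it Rora. The part of neighbouring tissue in the EN7 values was not tested. Of the 5 listed genes tested between the neuron classes, 4 were called higher in excitatory and 0 in inhibitory neurons (9.57% and 7.04% of all genes), with a median log2 fold change of 1.72, and the largest differences were those of Tcf7l2, a transcription factor (2.14 ± 0.26, SE, n = 4 libraries, edgeR adjusted p = 0.00110), and Prkcd, a protein kinase C (1.85 ± 0.23, edgeR adjusted p = 0.00117).

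Ntng2 ordered the excitatory subtypes in another way. EN6 was highest at 614 ± 226 CPM, followed by EN8 at 553 ± 173, EN4 at 527 ± 267, EN3 at 525 ± 189 and EN9 at 356 ± 225 (SD, n = 4 libraries each). EN13 (265 CPM), EN10 (166 CPM), EN1 (149 CPM), EN11 (114 CPM, n = 2 libraries) and EN5 (104 CPM) were intermediate. The excitatory class was not uniform, however, since EN12 (33.8 ± 27.3 CPM), EN2 (32.4 ± 7.27 CPM) and EN7 (5.57 ± 3.33 CPM, n = 2 libraries) lay below IN4, the highest inhibitory subtype. Among the 12 inhibitory subtypes, IN4 was highest at 43.3 ± 28.9 CPM, with 69.0, 66.5, 11.4 and 26.4 CPM in stage order. IN3 followed at 16.8 CPM, and the other 10 had means of 2.09 to 9.51 CPM. Of the 24 steps, 2 exceeded the larger SD, EN13 to EN10 and EN2 to IN3, and the rank correlation between libraries ran from 0.833 to 0.899.

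**Figure D2:**
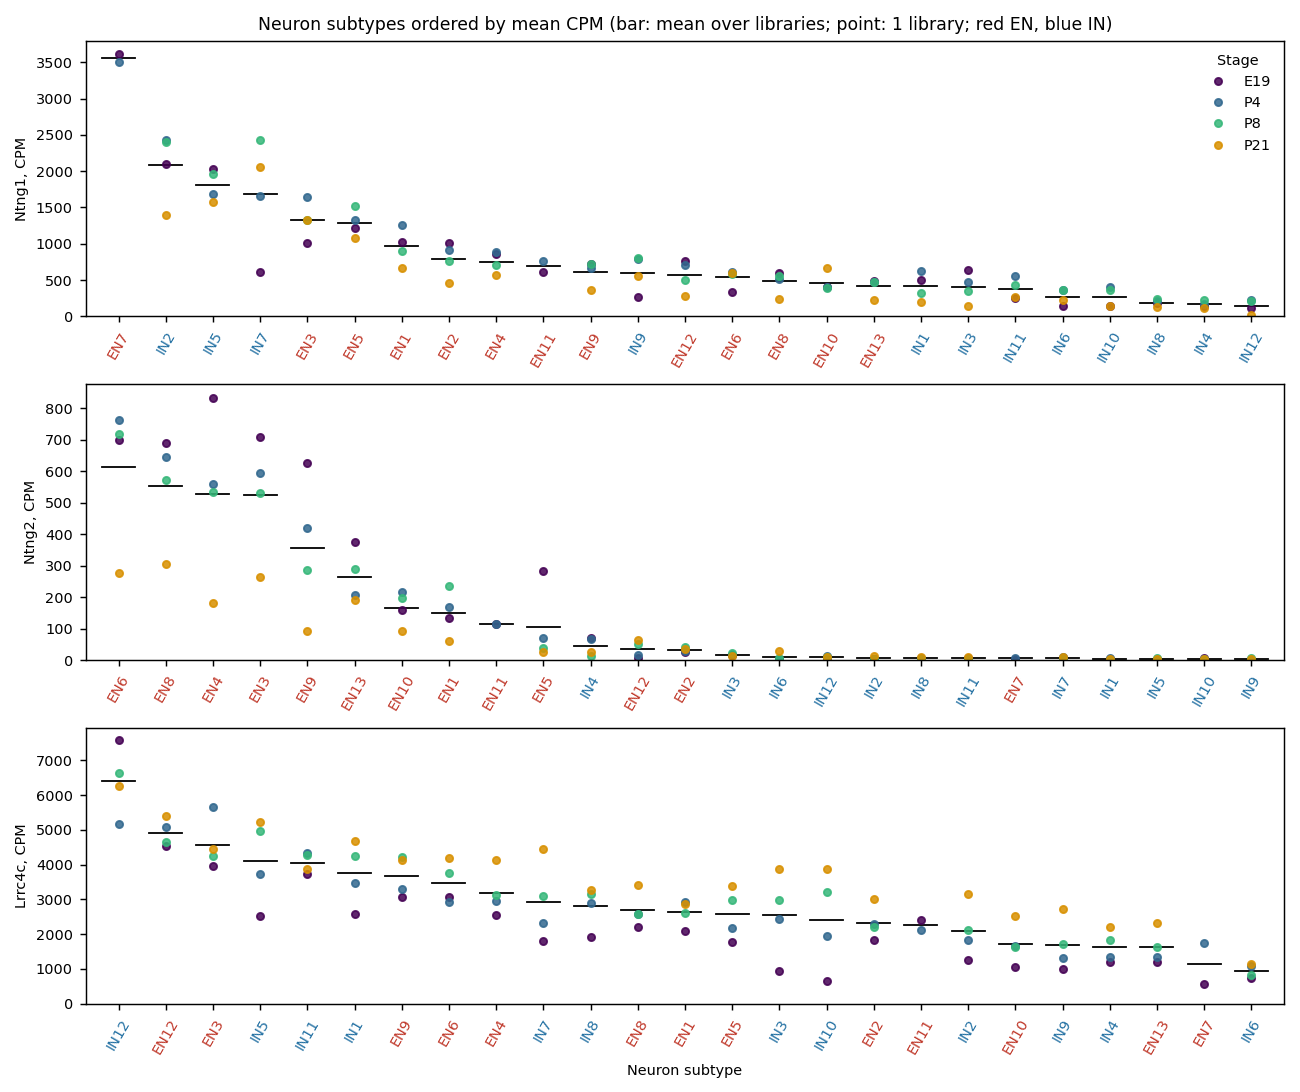
CPM of Ntng1, Ntng2 and Lrrc4c in the 25 neuron subtypes, ordered by the mean over libraries (bar), with each library as a point coloured by stage. The Ntng1 order begins with EN7 and IN2, that of Ntng2 with EN6 and EN8, and that of Lrrc4c with IN12 and EN12.

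The highest levels of both ligands did not fall in the same subtypes. EN7, first for Ntng1, held 5.57 CPM of Ntng2, and EN6, first for Ntng2, held 536 CPM of Ntng1, near the median of the subtypes (568 CPM). EN3 was among the higher subtypes for both, at 1328 CPM of Ntng1 and 525 CPM of Ntng2. As a description over subtype means that share libraries, Pearson's r of log2(CPM + 5) between the ligands was 0.08 over all 25 subtypes, -0.55 over the 13 excitatory ones and -0.39 over the 12 inhibitory ones. In single libraries the excitatory value was -0.54 at E19 and -0.47 at P4 but -0.18 at P8 and -0.20 at P21, over 11 subtypes without EN7 and EN11, and the inhibitory value ran from -0.39 to -0.20. Apart from IN4 and IN3, the inhibitory subtypes had Ntng2 means of 2.09 to 9.51 CPM, so the inhibitory values rest on few UMIs. The inhibitory rank correlation was -0.59, and -0.40 with 1 CPM added instead of 5.

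Lrrc4c, which encodes the receptor of netrin-G1, was present in every neuron subtype but over a 6.80-fold range. IN12, the subtype lowest in Ntng1, was highest in Lrrc4c at 6410 ± 993 CPM, with 7574, 5171, 6625 and 6271 CPM in stage order. EN12 (4914 ± 401 CPM), EN3 (4574 ± 755 CPM), IN5 (4109.7 ± 1241 CPM) and IN11 (4058 ± 302 CPM) came next (SD, n = 4 libraries each). The lowest means were those of EN7 (1151 ± 837 CPM, n = 2 libraries), which was highest in Ntng1, and IN6 (943 ± 204 CPM, n = 4). EN7 held 559 CPM at E19 and 1743 at P4, where EN10 held 1645 CPM. Its mean leaves out P8 and P21, so its place in the order is uncertain. Only 1 of the 24 steps between neighbours, IN12 to EN12, exceeded the larger SD, which again holds the difference between stages. The rank correlation between libraries ran from 0.724 to 0.902.

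Lrrc4, which encodes the receptor of netrin-G2, was low throughout. IN12 held 64.8 ± 7.39 CPM and EN13 62.7 ± 16.6, and the third subtype, IN7, held 40.5 ± 9.93 CPM (SD, n = 4 libraries each). EN13 exceeded IN7 by more than the larger SD, and all the other subtypes down to EN12 (15.8 CPM) lay between these values, with 1 further step beyond the spread, EN3 to the next. The neuronal class values of 22.5 to 35.6 CPM were within the range seen in leptomeningeal cells, 13.6 to 46.7 CPM. Microglia held 96.4 CPM at P4, 65.9 at P8 and 45.0 at P21, on 7, 5 and 5 UMIs. Their counting intervals at P8 (21.4 to 154 CPM) and P21 (14.6 to 105 CPM) included the neuronal values of those stages. Snd1, which overlaps it, stood at 106 to 131 CPM in the neuron classes, and its part in the Lrrc4 counts was not tested. The rank correlation between libraries ran from 0.317 to 0.772.

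Lrrc4b, which encodes NGL-3, had the narrowest range of subtype means among the 5 members. Its means ran from 142 ± 75.9 CPM in IN4 to 108 ± 39.5 in EN8 (SD, n = 4 libraries each), a 1.32-fold range in which none of the 24 neighbours differed beyond the larger SD. That SD holds the difference between stages, since E19 was highest and P21 lowest in each of the 23 subtypes measured in all 4 libraries, so this comparison has little power to show a difference between subtypes. EN7 and EN11 were measured at E19 and P4 only, so their means leave out the later stages. The rank correlation between libraries ran from -0.173 (P4 and P21) to 0.719 (P8 and P21).

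Ligands and their own receptors had correlations near 0 over the whole set of subtypes, with other values inside the classes. For Ntng1 and Lrrc4c, r over the 25 subtype means of log2(CPM + 5) was -0.11 (Spearman rank correlation 0.04), and it ran from -0.03 to 0.10 in single libraries. For Ntng2 and Lrrc4, r was 0.01 (rank correlation 0.05), and from -0.08 to 0.10 in single libraries. Within the 13 excitatory subtypes r was -0.33 for Ntng1 and Lrrc4c (rank correlation 0.02). In single libraries this r was -0.40 at E19 but 0.15 at P4, 0.40 at P8 and 0.11 at P21. For Ntng2 and Lrrc4 in the same subtypes r was 0.27 (rank correlation 0.33), with -0.04 to 0.31 in single libraries. Within the 12 inhibitory subtypes r was -0.01 for Ntng1 and Lrrc4c and 0.08 for Ntng2 and Lrrc4, the latter resting on few Ntng2 UMIs. Some subtypes held much of both members of a pair: IN5 had 1816 CPM of Ntng1 with 4109.7 CPM of Lrrc4c, and EN3 had 1328 CPM of Ntng1 with 4574 CPM of Lrrc4c. Others held mainly one, as IN12 (Lrrc4c) did, and EN7 at E19, with 3618 CPM of Ntng1 and 559 of Lrrc4c. At P4 EN7 held 3506 CPM of Ntng1 and 1743 of Lrrc4c. These are correlations over subtypes cut from the same counts and carry no test.

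**Figure D3:**
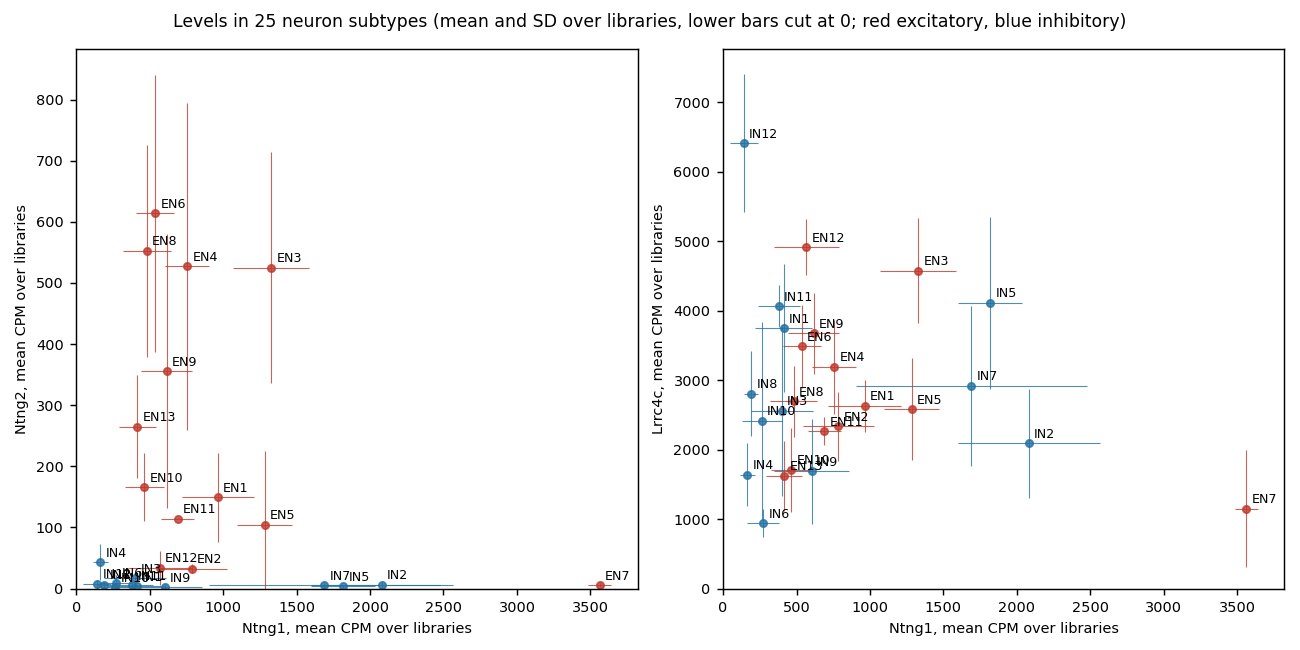
Each point is 1 of 25 neuron subtypes, placed by its mean CPM of Ntng1 and of Ntng2 (left) or Lrrc4c (right), with SD over libraries as bars. EN7 lies far right with 5.57 CPM of Ntng2 and 1151 CPM of Lrrc4c, and IN12 lies far left with 6410 CPM of Lrrc4c.

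Between E19 and P21 the members moved in different directions, described here by CPM and by log2 ratios with 5 CPM added, without a test. Lrrc4c was higher at P21 by 0.71 (log2) in excitatory and 0.86 in inhibitory neurons, with ratios of 1.64 (95% interval for counting error 1.62 to 1.66) and 1.82 (1.78 to 1.86), and it rose at each step in both classes. For comparison, the 211 genes of 500 kb or more had a median of 0.11 in excitatory neurons, with 58.3% of them higher at P21 and 17 higher by 2-fold, where all genes had a median of -0.06 and 46.1% were higher. In inhibitory neurons the median was 0.07 over 212 such genes and -0.04 over all genes. The part of gene length in the Lrrc4c values was not tested. Within subtypes, Lrrc4c was higher at P21 beyond counting error in 21 of 23, most in IN10 (640 to 3869 CPM, 6.05-fold) and IN3 (937 to 3876 CPM), and lower in 1, IN12 (7574 to 6271 CPM).

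Lrrc4b ran the other way, at 172, 124, 94.5 and 76.2 CPM in excitatory neurons and 186, 133, 100.2 and 82.9 CPM in inhibitory neurons, in stage order. The 2 classes were thus close at each stage, and the log2 ratio of P21 to E19 was -1.12 in both. It was lower at P21 beyond counting error in 23 of 23 subtypes, with a median log2 ratio of -1.15. Lrrc4b was the 1 of 5 members past 2-fold in either class, where 16% of 7650 genes in excitatory and 17.2% of 7807 genes in inhibitory neurons were past 2-fold (10.7% and 11.3% lower, 5.35% and 5.83% higher at P21). With 20 CPM added instead of 5, its log2 ratio was -0.995 and -0.999, and none of the 5 members passed in either class. Median-of-ratios scaling moved log2 ratios up by 0.12 in excitatory and 0.11 in inhibitory neurons, less for genes near the 5 CPM added, and Lrrc4b was then at -1.01 in excitatory neurons.

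Ntng1 had log2 ratios of P21 to E19 of -0.60 in excitatory and -0.29 in inhibitory neurons, but single subtypes differed in direction. It was lower at P21 beyond counting error in 13 of 23 subtypes and higher in 6. IN7 held 608, 1656, 2427 and 2062 CPM in stage order, a P21 level 3.39 times that at E19 (2.81 to 4.12). At P21 it exceeded IN2, at 1390.45 CPM, and at P8 it was close to it, at 2401 CPM. IN1 was at 507, 627, 319 and 194 CPM, and IN3 from 636 CPM to 138. The subtypes' shares of nuclei differed too: for IN1 the share of the inhibitory class was 29.8% in the E19 library and 9.46% in the P21 library. With subtypes weighted alike, the inhibitory log2 ratio was -0.06.

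Ntng2 in excitatory neurons was 0.599 of its E19 level at P21 (0.565 to 0.634). Ratios were lower inside the subtypes that held most of it. EN4 went from 834 to 182 CPM, EN3 from 709 to 263, EN6 from 699 to 277, EN8 from 691 to 304 and EN9 from 626 to 92.1, and in EN5 282 CPM became 24.0, a ratio of 0.0852. These subtypes also grew as a share of the class, EN6 from 2.24% to 9.38% of excitatory nuclei, and with subtypes weighted alike the log2 ratio was -1.48 rather than -0.72. EN12 was an exception, at 5.16 (1 UMI), 17.2, 49.3 and 63.7 CPM in stage order, 12.3 times the E19 level (2.15 to 494). Lrrc4 was 1.2 of its E19 level in excitatory neurons (1.05 to 1.38) and 1.00 in inhibitory neurons (0.836 to 1.21), and was beyond counting error in 4 of 23 subtypes, 2 in each direction.

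**Figure D4:**
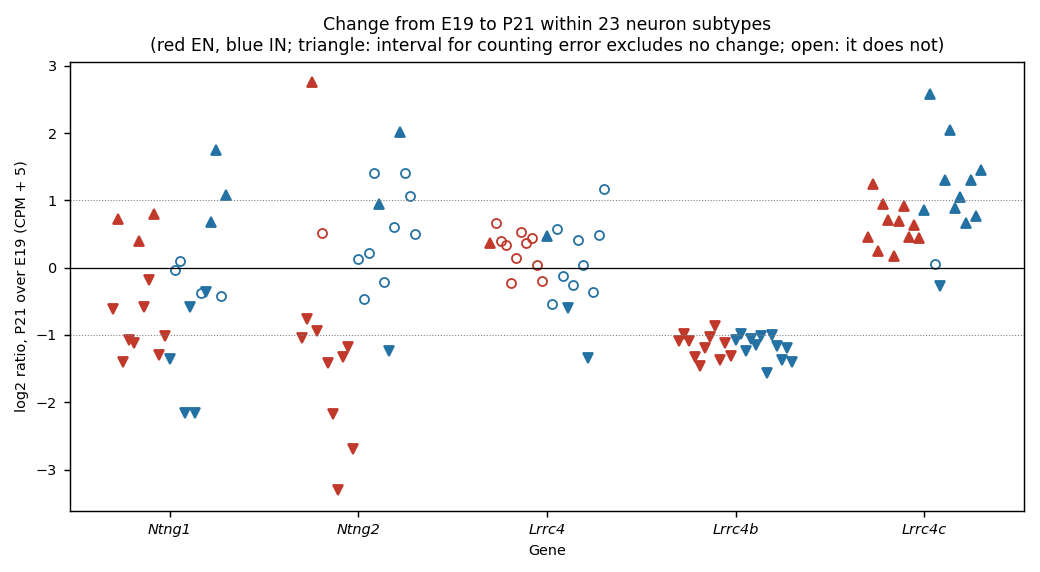
Log2 ratio of P21 to E19 (CPM + 5) of each gene within 23 neuron subtypes, 1 symbol per subtype (red excitatory, blue inhibitory); triangles have a 95% interval for counting error that excludes no change, open circles do not. Lrrc4b lies below 0 in all 23 subtypes, Lrrc4c above 0 in 22, and Ntng1 and Ntng2 on both sides.

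Outside neurons Ntng1 was low, whereas Ntng2 at P21 and Lrrc4c in precursor cells were above one or both neuronal levels of the same gene. Ntng1 stood at 81.8 to 190.1 CPM in astrocytes and 28.9 to 136 CPM in the oligodendrocyte lineage, against 37.1 to 83.3 CPM in leptomeningeal cells and 138 to 189 CPM in microglia from P4 on, and the part of free RNA in these values was not tested. At P21, 18 of the 21 microglial UMIs came from 1 nucleus. Neurons exceeded astrocytes by a log2 fold change of 3.10 ± 0.17 and the oligodendrocyte lineage by 3.78 ± 0.32 (SE, n = 4 libraries, adjusted p = 7.82e-06 and 4.99e-05 by edgeR), in 4 of 4 libraries each. Fibrous astrocytes were an exception, with 94.5, 346, 295 and 229 CPM in stage order, where protoplasmic astrocytes had 118, 145, 125 and 57.9 CPM.

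Of the 5 members, 4 were called between neurons and astrocytes, where 42.4% of genes were called (22.2% higher in neurons, 20.2% in astrocytes), and 3 between neurons and the oligodendrocyte lineage, where 21.7% were called (13.5% higher in neurons, 8.2% in the lineage). Ntng2 was higher in neurons than in astrocytes by 1.42 ± 0.38 (log2, SE, n = 4 libraries, edgeR adjusted p = 0.0190) and Lrrc4c by 0.74 ± 0.18 (edgeR adjusted p = 0.0133), while Lrrc4 was higher in astrocytes, with -0.66 ± 0.20 (edgeR adjusted p = 0.0316). For Ntng2 the neurons were both classes summed, and the classes lay on opposite sides: astrocytes, at 58.3, 45.6, 47.6 and 107 CPM in stage order, were below excitatory neurons and above inhibitory neurons (7.58 to 11.6 CPM) in all 4 libraries. Against the oligodendrocyte lineage, Ntng2 was higher in neurons by 2.33 ± 0.71 (edgeR adjusted p = 0.0432), again for the summed neurons, and Lrrc4 was higher in the lineage, with -1.0 ± 0.25 (edgeR adjusted p = 0.0185). The lineage held 10.2, 8.80, 23.2 and 112 CPM of Ntng2, so it was above inhibitory neurons at E19 (on 2 UMIs), P8 and P21 and below excitatory neurons at all 4 stages. Snd1 was also higher in both glial classes, at 130 to 247 CPM in astrocytes and 148 to 238 CPM in the oligodendrocyte lineage against 106 to 131 CPM in neurons, and its part in the Lrrc4 difference was not tested. These calls depended on single libraries: against astrocytes 2 of 5 remained without E19 and 1 without P4 or P8, and against the oligodendrocyte lineage 1 remained without E19, P4 or P8 and 4 were called without P21. The 1 call that held in each was Ntng1.

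Lrrc4c was above all neuronal class values in oligodendrocyte precursors (OPCs), the dividing progenitors of the lineage. They held 4139, 5099.8, 5977 and 6101 CPM in stage order, and every one of their nuclei had an Lrrc4c UMI, 100% of 46, 42, 109 and 64 nuclei, also after thinning to 2000 UMIs. Committed oligodendrocytes had 2075 CPM at P8 and 1155 at P21, and myelinating oligodendrocytes, present at P21 with 187 nuclei, had 732 CPM. Leptomeningeal cells, at 150.0 to 389 CPM, and microglia, at 474 to 549 CPM from P4 on, set the level against which these are to be read. For the lineage as a whole, Lrrc4c was 4082, 4406, 4785 and 1503 CPM, and OPCs made up 97.9% of its nuclei at E19 and 20.9% at P21. Between neurons and this lineage the log2 fold change was -0.05 ± 0.41 (SE, n = 4 libraries, edgeR adjusted p = 0.958), and without the P21 library it was -0.51 (edgeR adjusted p = 0.00585, against 0.896 to 0.971 when another library was left out).

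Ntng2 in glia was higher at P21 than before. Protoplasmic astrocytes had 66.6, 47.2, 49.0 and 106 CPM from E19 to P21 and fibrous astrocytes 26.2, 39.9, 40.9 and 110.2 CPM. OPCs had 10.5 (2 UMIs), 5.94 (1 UMI), 19.5 and 60.1 CPM in stage order, and at P21 committed and myelinating oligodendrocytes had 103 and 125 CPM. At P21 these glial values of 60.1 to 125 CPM were below that of excitatory neurons, 142 CPM, and above those of inhibitory neurons and leptomeningeal cells, 11.6 and 13.1 CPM. In the whole lineage the ratio of P21 to E19 was 11 (3.02 to 91.5), resting on 2 UMIs at E19. Lrrc4b stayed between 176 and 220 CPM in OPCs at all 4 stages, while in protoplasmic astrocytes it was 199.8, 169.6, 125 and 80.05 CPM in stage order.

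**Figure D5:**
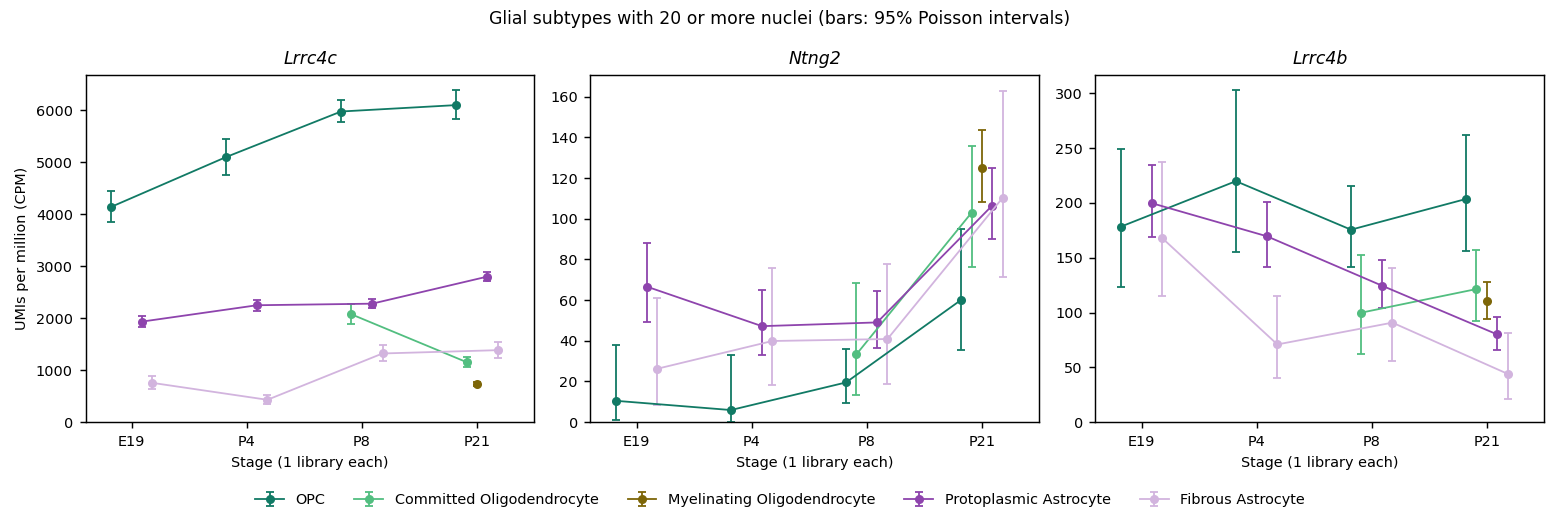
CPM of Lrrc4c, Ntng2 and Lrrc4b by stage in 5 glial subtypes with 20 or more nuclei, with 95% Poisson intervals. OPCs hold 4139 to 6101 CPM of Lrrc4c, and Ntng2 reaches 60.1 to 125 CPM in all 5 subtypes at P21.

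From E19 to P21, 1 of 5 members was past 2-fold in astrocytes (Lrrc4b), where 26.8% of genes were (18.2% lower, 8.6% higher), and 3 in the oligodendrocyte lineage (Ntng1, Ntng2 and Lrrc4c), where 43.1% were (28.3% lower, 14.7% higher). In leptomeningeal cells 2 members were past 2-fold, Lrrc4b lower and Lrrc4c higher, where 26.5% of genes were (18% lower, 8.48% higher).

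Other partners of the NGL proteins were examined as a list of 9 genes. Between the neuron classes, 4 were called higher in excitatory and 1 in inhibitory neurons, with a median log2 fold change of 0.13 against -0.01 over all 15686 genes tested, of which 9.57% were called higher in excitatory and 7.04% in inhibitory neurons. Ptprd, a LAR-family phosphatase bound by NGL-3, held 5670.2, 5914, 6604 and 6669.7 CPM in excitatory neurons from E19 to P21 and 4328, 4408, 4594 and 4069 CPM in inhibitory neurons, with no overlap (log2 fold change 0.57 ± 0.07, SE, n = 4 libraries, edgeR adjusted p = 0.00151). Its relatives did not pass the test, with log2 fold changes of 0.13 for Ptprf (edgeR adjusted p = 0.111) and -0.12 for Ptprs (edgeR adjusted p = 0.204). Both were lower at P21 than at E19 in excitatory neurons, Ptprf at 142 and 71.3 CPM and Ptprs at 645 and 317 CPM, as Lrrc4b was. Dlg4, which encodes PSD-95, was higher in excitatory neurons by 0.21 ± 0.05 (log2, SE, n = 4 libraries, edgeR adjusted p = 0.0191), at 111.7, 107.3, 104.7 and 116.8 CPM against 100.8, 99.4, 88.7 and 106.5 CPM. Whrn, which encodes a scaffold protein of the same domain type, was lower in excitatory neurons by -1.26 ± 0.22 (log2, edgeR adjusted p = 0.00639), and in inhibitory neurons it went from 19.6 CPM at E19 to 72.1 at P21.

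The classical netrins and their receptors, and other leucine-rich-repeat adhesion genes of the synapse, gave the surroundings of the family. Of 11 classical genes, 9 were tested, 2 called higher in excitatory and 3 in inhibitory neurons, with a median of -0.09, beside 9.57% and 7.04% of all genes. The largest differences were those of Dscam, a netrin receptor and adhesion molecule (-1.01 ± 0.08, edgeR adjusted p = 0.000121), and Ntn1, the secreted netrin-1 (0.97 ± 0.28, edgeR adjusted p = 0.0471). Of 22 adhesion genes, 6 were called higher in excitatory and 2 in inhibitory neurons, with a median of 0.13, beside the same 9.57% and 7.04% of all genes, led by Elfn1 (1.62 ± 0.21, edgeR adjusted p = 0.00138) and Slitrk1 (0.35 ± 0.07, edgeR adjusted p = 0.0161). None of these exceeded the 4.61 of Ntng2. From E19 to P21 in excitatory neurons, at 20 CPM or more, 1 of 8 partners, 0 of 7 classical genes and 1 of 18 adhesion genes were lower by 2-fold and none was higher, where 10.7% of all genes were lower and 5.35% higher. Of the thalamic list, 2 of 4 were lower and 0 higher.

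Genes whose pattern over the 25 subtypes was most like that of each member were taken from 2728 genes with 100 CPM or more in some subtype, by Pearson's r of mean log2(CPM + 5). For Ntng1 they were Srgap1, a GTPase-activating protein of the slit-robo pathway (r = 0.79), Zdhhc2, a palmitoyltransferase (0.73), and Soga3 (0.72), all highest in EN7. For Ntng2 they were Lhx2, a LIM homeobox transcription factor (0.80), Cacna2d1, a calcium channel subunit (0.80), and Dennd1a, an endocytic exchange factor (0.79), all highest in EN6. Lhx2 ran from 2.24 to 137 CPM and Cacna2d1 from 41.9 to 3135 CPM. For Lrrc4c they were Lrrc49 (0.65), Pex5l, a subunit partner of HCN channels (0.64), and Camk2a, the alpha chain of a calcium-dependent kinase (0.54). For Lrrc4, r did not exceed 0.63 (Larp4b, followed by Pnn and Serbp1, all RNA-binding proteins). For Lrrc4b they were Hspa8, a chaperone (0.89), Ppia, a prolyl isomerase (0.87), and H3f3a, a histone H3 variant (0.86); the counts of these 3 are uncertain because near-identical copies exist. All these values rest on subtypes that share the same 4 libraries, and EN7 and EN11 enter from E19 and P4 alone.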

How the data were processed

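Nuclei of 4 superior colliculus libraries were captured with 10x Genomics 3′ v3 chemistry and processed with Cell Ranger 3.0.2 against a pre-mRNA mm10 reference, per the labels' protocols. The deposited matrix held UMI counts per gene and nucleus, not normalized. In the table the authors deposited beside it, the percent of mitochondrial UMIs was at most 5 in any nucleus; stage, class and subtype were taken from that table and 8 of its columns were not used. The sources used here do not give the annotation release, the strand setting or any doublet step; all nuclei of the table were kept and no doublet caller was run.

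Counts were summed per library and class or subtype and scaled to CPM. Groups under 20 nuclei were left out of the levels, except 1 that is named with its number of nuclei. The check of class markers kept all groups, also small ones such as 13 endothelial nuclei at E19 and 10 dividing nuclei at P21. Beside a count of 0, the limit is 3 counts of the total. Intervals are 95% exact Poisson, binomial or Clopper-Pearson and cover counting error only. Class contrasts used edgeR 4.0.16 (R 4.3.3) quasi-likelihood tests on summed counts with TMM scaling, the default low-count filter and the library as block, since both classes come from the same libraries. DESeq2 1.42.0 was an alternative. The fit was also run on simulated counts with a fixed dispersion and no stage effect, so that trial does not cover the spread between these libraries. Nothing says that libraries differ only by stage, so the spread between them mixes age and technique. Past 2-fold means a log2 ratio of 1 or more with 20 CPM or more in the higher stage. Gene models came from GENCODE M21, which held 31011 of the 31053 identifiers. Named were the members, the 2 largest called list genes each between neuron classes, Ptprf, Ptprd, Ptprs and Dlg4, and the 3 genes most like each member. The thalamic list is also given gene by gene for EN7, which was singled out after its values were seen. The members and lists were chosen with earlier results of these data known.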

Additional observations from a re-analysis of the deposited data

Results flagged for a closer look

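With 1 library a stage, no difference below was tested; each sets a change whose counting interval excludes no change against one in the opposite direction elsewhere. Ntng2 at P21 was 0.599 of its E19 level in excitatory neurons but 1.47-fold in inhibitory neurons, 1.84-fold in astrocytes and 11-fold in the oligodendrocyte lineage, the last from 2 UMIs at E19. The inhibitory log2 ratio was 0.36 on all UMIs, 0.02 after thinning each nucleus to 2000 UMIs and 0.14 with subtypes or nuclei weighted alike. It rests on 47 UMIs at E19 and 131 at P21 before thinning, which leaves fewer and also changes the weight of nuclei. The part of depth in this difference was therefore not tested. Lrrc4c was 1.64-fold in excitatory neurons, 1.82-fold in inhibitory neurons and 1.54-fold in astrocytes, but 0.368 in the oligodendrocyte lineage, in which OPCs fell from 97.9% to 20.9% of nuclei.

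Between neuron subtypes, Ntng1 was 3.39-fold in IN7 and 0.188 in IN12 (5 UMIs at P21), and Ntng2 was 2.95-fold in IN2 (5 UMIs at E19) and 0.0852 in EN5. Lrrc4c was 6.05-fold in IN10 and 0.828 in IN12. Lrrc4 was 1.46-fold in IN1 and 0.319 in IN6 (8 UMIs at P21).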

How the results depend on the processing

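The excitatory-inhibitory count stayed at 1 of 5, Ntng2, under each alternative run, with its log2 fold change from 4.26 without P8 to 5.0 without P21. The direction of Lrrc4, not called, turned to 0.0356 without P4, 0.0228 without P8 and 0.0082 without neurons of mixed transmitter UMIs, and over the fits that left out 1 library it ran from -0.16 to 0.0356. Leaving out 1 library moved the astrocyte count from 4 to between 1 and 4 and the oligodendrocyte count from 3 to between 1 and 4; Lrrc4c against that lineage turned to 0.151 without E19, 0.0588 without P4 and 0.0724 without P8, and was -0.51 without P21. Without a replicate block for the library, the 3 counts were 1, 3 and 2, and 183 rather than 2606 genes were called between neuron classes. That count was 1584 with DESeq2, 1498 after thinning, 1617 without P4, 1736 without E19 and 1223 without P8; the oligodendrocyte count of all genes, 3370, was 2064 without P4 and 1717 without P8. Between E19 and P21 the count of 1 became 0 in both classes with a pseudocount of 20 CPM and 2 in excitatory neurons with subtypes weighted alike, where Ntng2 passed. Over alternatives of single values, 338 kept direction and side of the threshold or moved by less than the spread, 46 moved, 37 lost and 1 gained the threshold and 6 reversed; of those of counts, 37 kept and 9 moved. Shallow glial and embryonic groups limit Ntng2 and Lrrc4, which often rest on under 20 UMIs. The causes of these shifts were not tested.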

Other observations

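In the class labelled epithelial, Ntng1 stood at 466 CPM at P4, and 52 of its 63 UMIs came from 1 nucleus of 17. In dividing cells Lrrc4c was at 2598 CPM at E19, 3409 at P4 and 5284 at P8, in 36, 25 and 35 nuclei.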
